A study of Homo sapiens with 6 samples.

Results

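The genes described here carry the output of the Hippo pathway: the coactivators YAP (YAP1) and TAZ (WWTR1), the DNA-binding factors TEAD1, TEAD3 and TEAD4, the TEAD cofactor VGLL4, the pathway regulators LATS2, AMOTL2 and AJUBA, and the target ANKRD1. They were chosen by name for these roles, with earlier results of these data known. Of these 10 genes, 9 had a row among the 19469 genes of the count table, which holds genes above 1 CPM in at least 2 libraries. ANKRD1 was not analysed here. The RNA came from L3.6pl, an established human pancreatic cancer line of adenosquamous type derived from a lymph node metastasis, which the sample labels also write as L6.6pl. Untreated cells of this one line were sorted by FACS on surface L1CAM, a cell adhesion molecule, into L1high (L1CAM-positive) and L1low (L1CAM-negative) cells, with 3 libraries each. The labels do not say whether the libraries of a group came from separate cultures, so the p-values measure only the spread between these libraries.

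Hippo signalling is a kinase cascade in which STK3 and STK4 activate LATS1 and LATS2. These phosphorylate YAP and TAZ, which are then held in the cytoplasm or degraded. Unphosphorylated YAP and TAZ enter the nucleus and bind TEAD factors, and several of their target genes, LATS2 and AMOTL2 among them, encode inhibitors of YAP and TAZ. The control acts largely on the proteins, by phosphorylation and location, which RNA counts do not measure. In epithelial cells the pathway responds to cell density, cell shape and matrix stiffness.

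Total counts per library ran from 16334610 to 21064685. L1CAM, the sorting marker, stood between 69.8 and 89.5 CPM in the L1high libraries and between 17.7 and 23.7 CPM in the L1low libraries. All 8 ductal epithelial and all 4 squamous markers looked for had a row. Some of them moved with the groups: TP63 (log2 fold change 1.09), KRT14 (0.50) and KRT19 (0.69) were called higher in L1low cells, and KRT6A (-0.58) and EPCAM (-0.37) were called lower. The other 7 of these 12 markers were not called over the 5 libraries of the comparison described below, where 7.57% of all genes were called. Over all 6 libraries CLDN4 was also called lower (-0.35, edgeR adjusted p = 0.021). With the replicate number as a block over all 6, KRT8 was called lower as well (-0.22, edgeR adjusted p = 0.034). Of 8 fibroblast markers only LUM and ACTA2 had a row. Their summed level was 85.0 to 97.5 CPM in L1high and 138 to 159 CPM in L1low libraries, nearly all of it LUM. Of 6 leukocyte and endothelial markers, CD68 and PECAM1 had a row, with a summed level of 19.7 to 20.7 CPM in L1high and 23.2 to 24.5 CPM in L1low libraries. The part of other cell types in the differences reported here was not tested. L1low was compared with L1high over 5 libraries, since the study's comparison leaves out L1high replicate 3, and then over all 6. The test was that of edgeR (quasi-likelihood), with p adjusted over all genes by Benjamini-Hochberg, and a gene is called where this falls under 0.05. Log2 fold changes are L1low over L1high.

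RNA of the effectors YAP1 and WWTR1 and of their DNA-binding partners did not pass the test in either direction, and 2 of the 9 genes were called. AJUBA and AMOTL2 rose in L1low cells, by 1.89-fold and 1.61-fold over the 5 libraries. None of the 9 was called lower. Over the same libraries 7.57% of all genes were called, 4.41% higher and 3.15% lower. The median log2 fold change of the 9 genes was 0.14, beside 0.0016 over all genes tested. In bulk RNA a larger share of cells that express a gene cannot be told apart from more RNA per cell.

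Compared per exon length, as RPKM (CPM divided by the merged exon length in kilobases), YAP1 was by far the most abundant of the 9 genes. Its RPKM averaged 75.9 over the 6 libraries and ran from 60.4 to 88.8, above the range of each of the other 8. The order of the next 4 genes turned between the groups. In L1high libraries TEAD4 (15.3 to 18.4) and WWTR1 (13.5 to 15.7) overlapped each other and lay above AMOTL2 (9.84 to 11.9), which lay above AJUBA (8.44 to 9.52). In L1low libraries AMOTL2 (16.04 to 17.7) and AJUBA (16.5 to 17.5) overlapped each other and lay above TEAD4 (14.6 to 15.5) and WWTR1 (13.9 to 15.1), which overlapped in turn. In both groups TEAD3 and TEAD1 followed, with mean RPKM over the 6 libraries of 6.53 and 6.04 and ranges that overlapped within each group. VGLL4 (4.64) and LATS2 (2.81) were lowest, each apart from its neighbours. The lengths join all annotated isoforms, so these levels are approximate.

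YAP1 (ENSG00000137693) lies on the plus strand of chromosome 11, from 102110447 to 102233424 in GRCh38, the build of all gene positions given here. It encodes YAP, the best known coactivator of the pathway. Its level was 468, 493 and 381 CPM in L1high replicates 1, 2 and 3 and 560.5, 534 and 435 CPM in L1low replicates 1, 2 and 3. The groups overlapped, and the third replicate was the lowest in both. The means were 447 ± 58.9 CPM in L1high and 510.1 ± 66.0 CPM in L1low cells (SD, n = 3 each). YAP1 changed by 0.10 on the log2 scale over the 5 libraries (SE 0.10, 95% interval -0.12 to 0.31, edgeR adjusted p = 0.60), and over all 6 it was 0.19 (95% interval -0.05 to 0.43, edgeR adjusted p = 0.33). YAP1 was higher in L1low in each of the 3 pairs of libraries with the same replicate number. Over the 12675 genes whose mean log2 CPM reached 3, only number 3 correlated best with itself in both groups. Pairing by number is therefore an assumption here and below. With the replicate number as a block over all 6 libraries the estimate was again 0.19 (95% interval 0.06 to 0.32), with an edgeR adjusted p of 0.061. The lncRNA gene ENSG00000254422 shares 628 exon bases with YAP1 on the opposite strand, and its levels of 79.3 to 101 CPM in L1high and 93.6 to 116 CPM in L1low were likewise lowest in the third replicates. Whether the counting used strand is not given in the sources used here, so reads of the pair may not be separate.

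WWTR1 (ENSG00000018408, minus strand of chromosome 3 from 149517235 to 149736714) encodes TAZ, the paralog of YAP. It stood at 115, 131 and 113 CPM in the L1high and 116, 126 and 118 CPM in the L1low libraries. The L1low values lay inside the range of the L1high values. The log2 fold change was -0.03 over the 5 libraries (95% interval -0.21 to 0.15, edgeR adjusted p = 0.87) and 0.0015 over all 6 (95% interval -0.17 to 0.17, edgeR adjusted p = 0.99), so its sign depended on the libraries used. Within a library, where no scaling enters, the log2 ratio of WWTR1 to YAP1 counts averaged -1.90 ± 0.14 in L1high and -2.08 ± 0.19 in L1low cells (SD, n = 3 each). The ratio was lower in L1low in each of the 3 pairs with the same replicate number, by -0.25, -0.17 and -0.13. The groups overlapped, and the mean difference of -0.19 did not pass the test without pairing (two-sided exact permutation test, p = 0.3, adjusted p = 0.3 over 2 ratios, where 3 against 3 libraries cannot go below 0.1). With pairing, 3 pairs cannot give a p below the 0.25 found here (two-sided exact sign-flip permutation test). Per exon length, YAP1 exceeded WWTR1 by 4.46 to 6.40 times in the 6 libraries. WWTR1-AS1, which shares 756 exon bases on the opposite strand, ran from 6.05 to 11.8 CPM.

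Likeness of pattern was measured as the root mean square difference of centred log2 CPM over the 6 libraries, among the 12674 other genes whose mean log2 CPM reached 3. The genes nearest to YAP1 were UGCG (0.027), which makes glucosylceramide, MSL2 (0.030), a ubiquitin ligase of a chromatin complex, and CLDN1 (0.030), a tight junction claudin. The genes nearest to WWTR1 were COX7A2L (0.022), LINC00667 (0.024) and HOOK3 (0.026). The median gene lay at 0.23 from YAP1 and at 0.15 from WWTR1. The root mean square of the centred values was 0.19 for YAP1 itself and 0.077 for WWTR1. WWTR1 thus varied little over the libraries, and the genes nearest to it are those that varied little too.

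**Figure D1:**
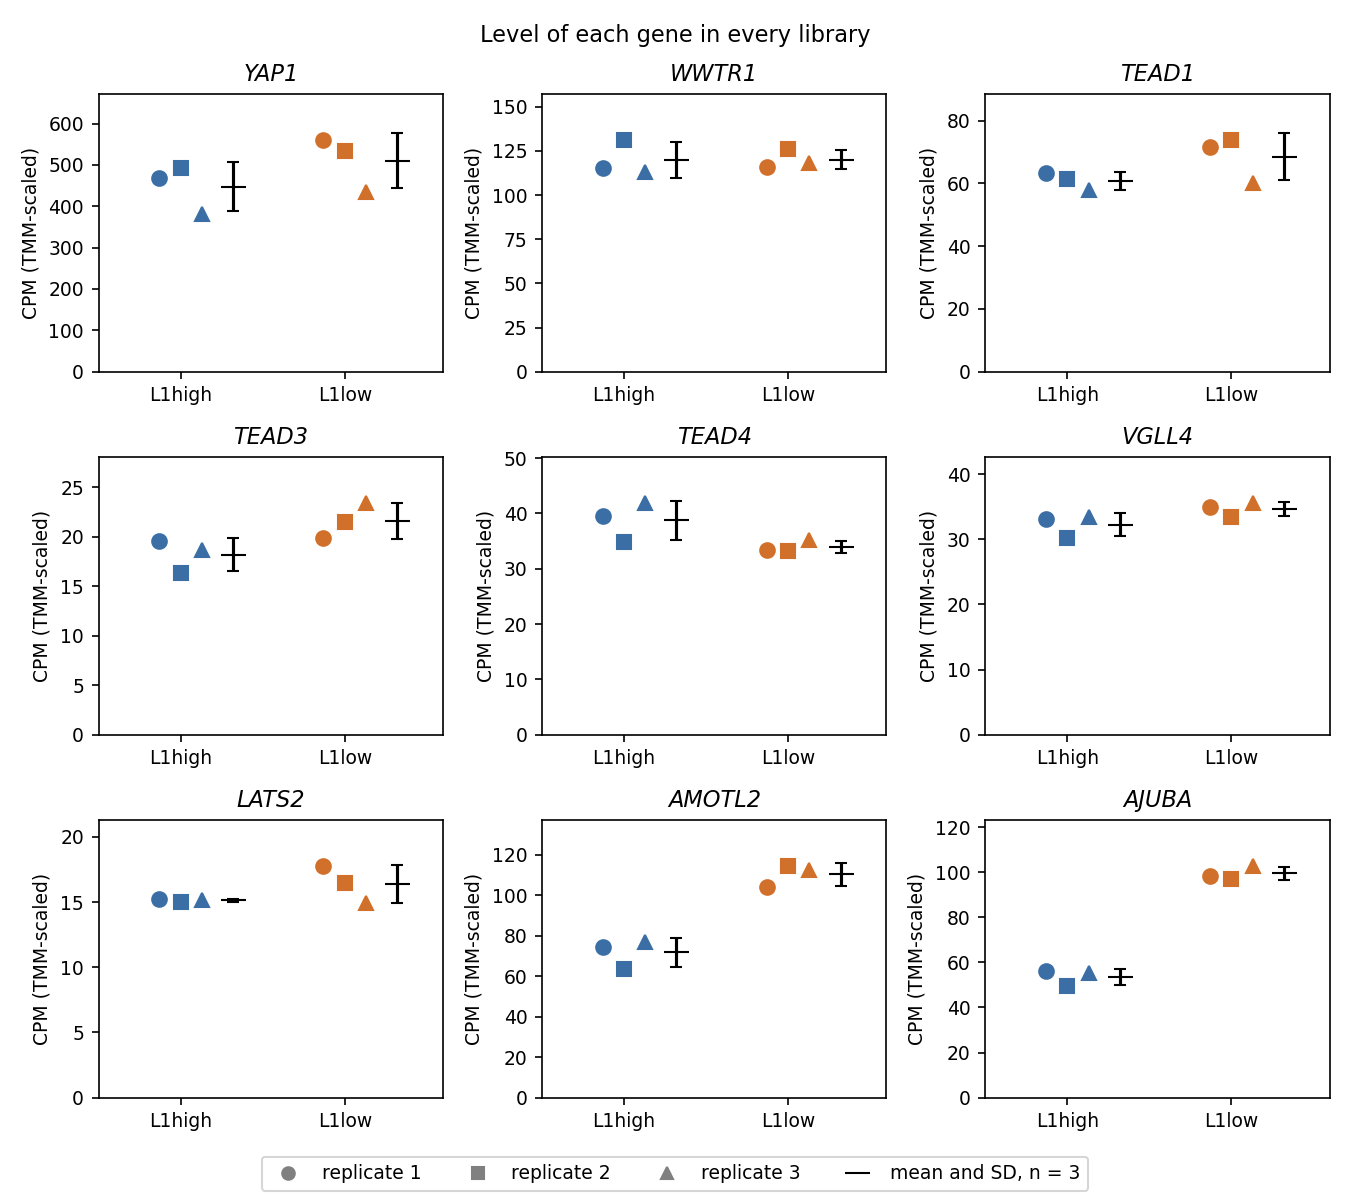
Level of each of the 9 genes in CPM (TMM-scaled, axes from 0) in the 3 L1high libraries (blue) and the 3 L1low libraries (orange), with marker shapes for the replicate number and a black bar for the mean and SD of each group (n = 3). AJUBA and AMOTL2 are clearly apart between the groups, at most 77.0 CPM in L1high and at least 97.1 CPM in L1low libraries, while YAP1 and WWTR1 overlap.

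The TEAD factors carry YAP and TAZ to DNA. TEAD1 (ENSG00000187079, plus strand of chromosome 11 from 12674421 to 12944737) stood at 63.3, 61.3 and 57.8 CPM in the L1high and 71.7, 73.9 and 60.1 CPM in the L1low libraries. L1low replicates 1 and 2 lay above all L1high libraries, and L1low replicate 3 lay among them. TEAD1 was not called, at a log2 fold change of 0.15 (95% interval -0.07 to 0.36, edgeR adjusted p = 0.40). TEAD3 (ENSG00000007866, minus strand of chromosome 6 from 35473597 to 35497079) stood at 19.6, 16.4 and 18.6 CPM in the L1high and 19.9, 21.5 and 23.4 CPM in the L1low libraries. The groups did not overlap, although L1high replicate 1 and L1low replicate 1 lay close together. The log2 fold change of TEAD3 was 0.27 (SE 0.12, 95% interval 0.01 to 0.54) and did not pass the test after adjustment (edgeR adjusted p = 0.20 over the 5 libraries and 0.19 over all 6). TEAD4 (ENSG00000197905, plus strand of chromosome 12 from 2959330 to 3040676) stood at 39.5, 34.8 and 41.9 CPM in the L1high and 33.3, 33.2 and 35.2 CPM in the L1low libraries. L1high replicate 2 lay within the L1low range, and the other 2 L1high libraries lay above it. Its log2 fold change was -0.12 over the 5 libraries (95% interval -0.34 to 0.09, edgeR adjusted p = 0.49) and -0.19 over all 6 (95% interval -0.39 to 0.01, edgeR adjusted p = 0.23).

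TEAD2, the remaining gene of the family, was at 37.8 to 40.5 CPM in L1high and 35.1 to 37.9 CPM in L1low libraries (log2 fold change -0.06, edgeR adjusted p = 0.74). The summed RPKM of the 4 TEAD genes was 39.1 to 43.5 in L1high and 39.6 to 41.5 in L1low libraries, so the total overlapped. Within the total, TEAD4 held 39.1% to 42.3% in L1high and 35.5% to 37.3% in L1low libraries. TEAD3 held 13.7% to 15.0% in L1high and 16.4% to 18.5% in L1low libraries. TEAD2 held 30.9% to 32.5% in L1high and 29.7% to 30.7% in L1low libraries. These shares did not overlap between the groups, although those of TEAD2 lay close together, while those of TEAD1 did. The 4 shares add up to the whole, so they are not independent, and they were not tested. In CPM, 28.8% of all genes had no overlap between the groups. The log2 ratio of TEAD1 to TEAD4 counts was 0.68, 0.82 and 0.46 in the L1high and 1.11, 1.15 and 0.77 in the L1low libraries. It was higher in L1low in each of the 3 pairs with the same replicate number, by a mean difference of 0.36, but the groups overlapped and the difference did not pass the two-sided exact permutation test (p = 0.2, adjusted p = 0.3, smallest possible p of 0.1).

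**Figure D2:**
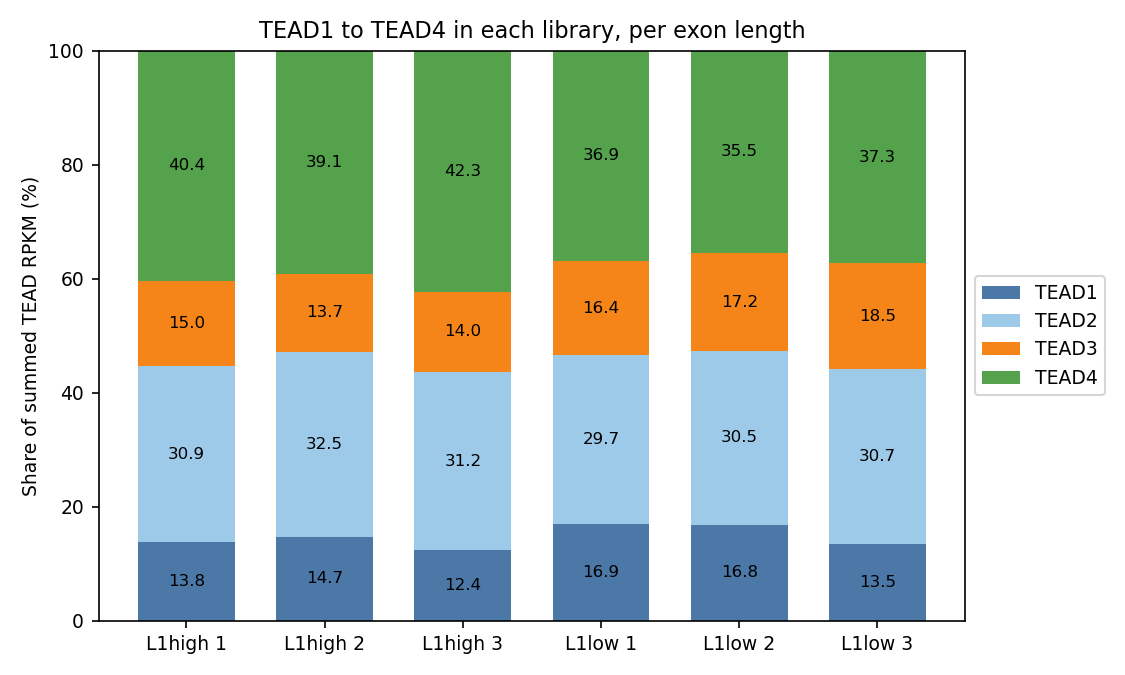
Share of TEAD1, TEAD2, TEAD3 and TEAD4 in their summed RPKM in each of the 6 libraries, with each bar adding up to the whole and the shares in percent written inside. TEAD4 is the largest share in every library, from 35.5% to 42.3%, and TEAD2 the next, from 29.7% to 32.5%.

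VGLL4 (ENSG00000144560, minus strand of chromosome 3 from 11556069 to 11771350) encodes a vestigial-like protein that competes with YAP for TEAD. It stood at 33.0, 30.2 and 33.4 CPM in the L1high and 35.0, 33.4 and 35.6 CPM in the L1low libraries. The L1low values were all higher, but L1low replicate 2 was barely above L1high replicate 3. The log2 fold change was 0.14 (95% interval -0.07 to 0.35) and was not called (edgeR adjusted p = 0.42). VGLL4 shares 1597 exon bases on opposite strands with ATG7, an autophagy gene, which was at 33.6 to 37.1 CPM in L1high and 37.9 to 41.2 CPM in L1low libraries and was not called either (log2 fold change 0.16, edgeR adjusted p = 0.35).

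AJUBA, AMOTL2 and LATS2 act on the pathway from different sides. AJUBA is a LIM-domain protein of cell junctions that binds and restrains the LATS kinases. AMOTL2 is an angiomotin that binds YAP and holds it outside the nucleus, and LATS2 is one of the kinases that phosphorylate it. AJUBA (ENSG00000129474, minus strand of chromosome 14 from 22971177 to 22982551) had 56.0, 49.7 and 55.2 CPM in the L1high and 98.4, 97.1 and 102.8 CPM in the L1low libraries. All L1low libraries lay far above all L1high libraries, with 53.6 ± 3.47 CPM against 99.4 ± 2.97 CPM (SD, n = 3 each). The log2 fold change was 0.92 over the 5 libraries (SE 0.09, 95% interval 0.73 to 1.11, edgeR adjusted p = 3.5e-05) and 0.89 over all 6 (edgeR adjusted p = 2.3e-05). It was called in each of 16 alternative settings of the fit, at 0.84 to 1.01. The protein-coding gene ENSG00000259132 shares 50 exon bases with AJUBA on the same strand and was not called (log2 fold change 0.25, edgeR adjusted p = 0.17).

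AMOTL2 (ENSG00000114019, minus strand of chromosome 3 from 134355347 to 134375479) had 74.4, 63.8 and 77.0 CPM in the L1high and 103.9, 114 and 113 CPM in the L1low libraries. The groups were again apart, with 71.7 ± 7.004 CPM in L1high and 110.3 ± 5.63 CPM in L1low cells (SD, n = 3 each). Its log2 fold change was 0.68 over the 5 libraries (SE 0.09, 95% interval 0.49 to 0.88, edgeR adjusted p = 5.8e-04) and 0.62 over all 6 (edgeR adjusted p = 8.4e-04). It was called in each of the 16 alternative settings, at 0.54 to 0.80. RPL39P5, a pseudogene that shares 187 exon bases with AMOTL2 on the same strand, was at 10.1 to 12.1 CPM in L1high and 13.6 to 15.7 CPM in L1low libraries, and its reads may belong to AMOTL2.

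LATS2 (ENSG00000150457, minus strand of chromosome 13 from 20973036 to 21061586) did not pass the test. It had 15.2, 15.0 and 15.2 CPM in the L1high and 17.8, 16.5 and 14.9 CPM in the L1low libraries. L1low replicates 1 and 2 were above the L1high libraries and L1low replicate 3 was below them. The log2 fold change was 0.13 (95% interval -0.14 to 0.39, edgeR adjusted p = 0.57). LATS2 is the least abundant of the 9 genes, with 249 to 323 counts per library.

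These 3 regulators are shown with the stretch around an annotated start, since AMOTL2 and LATS2 are known YAP and TAZ targets and TEAD factors bind the motif GGAATG. The windows come from RefSeq (GRCh38.p14) and run from 250 bases before a transcript start to 50 bases after it, read 5′ to 3′ on the gene's strand. Capitals mark GGAATG, or CATTCC where the motif lies on the other strand. AMOTL2 and AJUBA each have a second listed start, whose window holds no match (chr3:134375368-134375667 and chr14:22982502-22982801). In both genes this other start lies nearer the 5′ end of the annotated gene. The windows shown for them lie further inside the gene and were shown because they hold a match.

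AMOTL2 (chr3:134374398-134374697, minus strand): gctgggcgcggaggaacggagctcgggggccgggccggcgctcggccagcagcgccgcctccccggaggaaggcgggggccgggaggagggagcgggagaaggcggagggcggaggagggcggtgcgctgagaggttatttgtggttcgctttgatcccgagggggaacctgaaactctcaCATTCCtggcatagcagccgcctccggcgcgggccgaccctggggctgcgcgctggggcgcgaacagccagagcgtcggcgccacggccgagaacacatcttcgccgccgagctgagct

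AJUBA (chr14:22976793-22977092, minus strand): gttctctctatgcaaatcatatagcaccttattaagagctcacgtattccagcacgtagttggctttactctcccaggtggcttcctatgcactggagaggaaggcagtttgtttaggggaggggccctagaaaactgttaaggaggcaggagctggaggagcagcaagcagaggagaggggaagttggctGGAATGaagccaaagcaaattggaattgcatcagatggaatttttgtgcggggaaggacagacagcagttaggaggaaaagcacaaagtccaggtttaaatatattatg

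LATS2 (chr13:21061537-21061836, minus strand): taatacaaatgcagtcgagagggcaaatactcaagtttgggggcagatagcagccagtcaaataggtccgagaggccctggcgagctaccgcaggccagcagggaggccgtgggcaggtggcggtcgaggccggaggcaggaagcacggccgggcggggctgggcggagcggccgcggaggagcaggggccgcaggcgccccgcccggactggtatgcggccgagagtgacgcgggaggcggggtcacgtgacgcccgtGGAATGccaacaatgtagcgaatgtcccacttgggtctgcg

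Each of these windows holds 1 match, which begins at position -69 of AMOTL2, -59 of AJUBA and +10 of LATS2, counted from the start. Windows were listed for 8 of the 10 genes, 15 windows in all, and 5 of them hold a match. The others are the window of YAP1, with 1 match, and that of ANKRD1, with 2. No match lies in the windows of WWTR1, TEAD3 and VGLL4, and TEAD1 and TEAD4 had no entry. Of 34943 windows of this length over all genes, 14.04% hold the motif on either strand. The letters were thus found in genes that were called and in genes that were not.

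Among the 9 genes, 4 had no overlap between the 3 L1low and the 3 L1high libraries (AJUBA, AMOTL2, TEAD3 and VGLL4), each with L1low above, beside 28.8% of all genes with no overlap in either direction. AJUBA and AMOTL2 were also the called genes over all 6 libraries, where 7.95% of all genes were called. They were again the called genes with the replicate number as a block, where the share over all genes was 12.1%. The 95% intervals of the 7 genes that did not pass lay between -0.34 and 0.54 over the 5 libraries. The lower end is that of TEAD4 and the upper end that of TEAD3. Changes inside the intervals of TEAD3 and TEAD4 were called for other genes, such as FAT1 (0.52) and WWC1 (-0.32). The intervals of YAP1 (-0.12 to 0.31) and WWTR1 (-0.21 to 0.15) hold neither value, but they allow smaller changes. The missing calls therefore do not show that the 7 genes were at the same level.

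**Figure D3:**
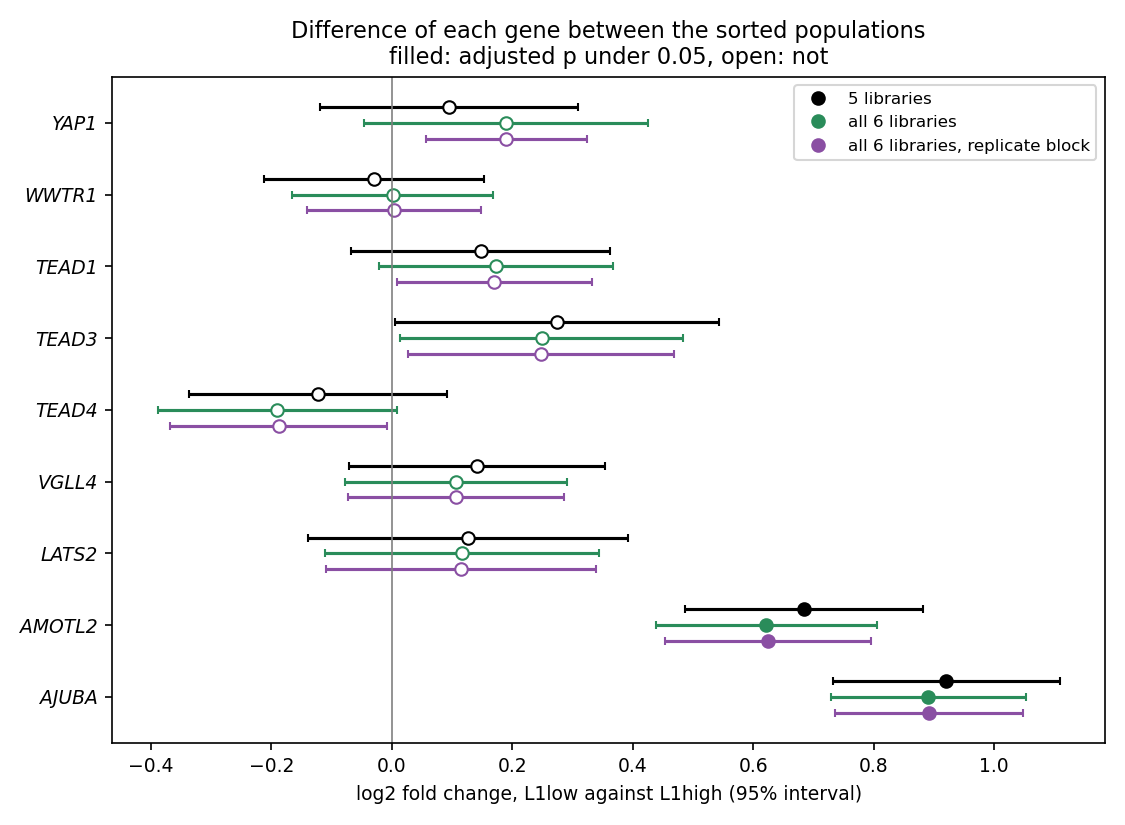
Log2 fold change of each of the 9 genes in L1low against L1high cells with its 95% interval, over 5 libraries (black), all 6 libraries (green) and all 6 libraries with the replicate number as a block (purple). Filled points passed the edgeR test at an adjusted p under 0.05, which AMOTL2 and AJUBA have in all 3 fits and the other 7 genes in none.

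The other genes of the pathway were read from lists set by role, also with earlier results of these data known. Of their 73 genes, 69 had a row. Over the 5 libraries 11 of the 69 were called, 9 higher and 2 lower in L1low cells, beside 7.57% of all genes. The same number was called over all 6, beside 7.95% of all genes. The core kinase cassette had 0 of 6 genes called over the 5 libraries by edgeR, with 1 at an unadjusted p under 0.05, beside 23.3% of all genes, and a median log2 fold change of -0.08. That gene was STK3, a kinase that activates LATS1 and LATS2. It stood at 26.8, 33.3 and 24.7 CPM in the L1high and 24.8, 21.2 and 19.0 CPM in the L1low libraries, which overlapped. Its log2 fold change was -0.46 (edgeR adjusted p = 0.056) over the 5 libraries and -0.38 (edgeR adjusted p = 0.10) over all 6. STK3 was called lower with the replicate block over all 6 libraries (edgeR adjusted p = 0.029), with DESeq2 (adjusted p = 0.032), with upper-quartile factors (edgeR adjusted p = 0.047) and without L1low replicate 1 (edgeR adjusted p = 0.019). It was not called in the other alternatives, among them the replicate block over the 5 libraries (edgeR adjusted p = 0.054). The log2 fold changes of its partners were 0.03 for STK4, -0.0012 for the scaffold SAV1, -0.08 for LATS1, and -0.09 and -0.21 for the adaptors MOB1A and MOB1B. Over all 6 libraries the estimates of SAV1 and MOB1A were above 0, at 0.03 and 0.0004.

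Among 20 upstream activators and YAP-binding proteins, the fit to 5 libraries called 2 higher and 1 lower in L1low cells. Of all genes, the same fit called 4.41% higher and 3.15% lower. The median of the list was 0.08 on the log2 scale. PTPN14, a phosphatase that binds YAP and is itself a target, was at 37.5 to 42.2 CPM in L1high and rose to between 58.7 and 62.1 CPM in L1low libraries (log2 fold change 0.64, edgeR adjusted p = 8.4e-04). FAT1, an atypical cadherin, was at 310 to 341 CPM in L1high and rose to between 448 and 475 CPM in L1low libraries (log2 fold change 0.52, edgeR adjusted p = 9.2e-04). WWC1, the scaffold also known as KIBRA, fell by 0.32 on the log2 scale (edgeR adjusted p = 0.036), with 70.9 to 78.3 CPM in L1high and 58.2 to 60.8 CPM in L1low libraries. Over the 5 libraries the call of WWC1 was lost without L1high replicate 1, L1high replicate 2 or L1low replicate 2 (edgeR adjusted p = 0.16, 0.10 and 0.15) and with the replicate block over the 5 libraries (0.075). NF2 encodes merlin, a membrane-linked activator of the cascade, and had a log2 fold change of 0.08 (edgeR adjusted p = 0.65).

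Of 13 LIM and STRIPAK proteins, which hold the kinases in check, 0 were called over the 5 libraries by edgeR, with 4 at an unadjusted p under 0.05, beside 23.3% of all genes, and a median log2 fold change of 0.03. The 11 genes for cytoplasmic retention and turnover of YAP and TAZ, mostly 14-3-3 proteins, had a median of -0.10. Of these YWHAH alone was called over the 5 libraries, beside 7.57% of all genes. It encodes the 14-3-3 protein eta and fell by 0.31 on the log2 scale (edgeR adjusted p = 0.035), with 117 to 133 CPM in L1high and 96.7 to 108 CPM in L1low libraries. Leaving out L1high replicate 1, L1high replicate 2, L1low replicate 2 or L1low replicate 3 ended this call (edgeR adjusted p = 0.089, 0.26, 0.12 and 0.051), as did the replicate block over the 5 libraries (0.098). With the block over all 6 libraries, 16 of the 69 genes were called, beside 12.1% of all genes. The additional ones were STK3, MOB4 (log2 fold change -0.40), a STRIPAK subunit, SFN (0.22), the epithelial 14-3-3 protein sigma, the cadherin FAT4 (0.59) and CCDC80 (0.45), a matrix protein. The last 4 were named after their values were seen. MOB4 was also called over the 5 libraries with DESeq2 (adjusted p = 0.029), with upper-quartile factors (edgeR adjusted p = 0.0496) and without L1low replicate 1 (edgeR adjusted p = 0.011). SFN was called there with DESeq2 (adjusted p = 0.044) and without L1low replicate 3 (edgeR adjusted p = 0.048), and CCDC80 without L1low replicate 1 (edgeR adjusted p = 0.037). In the other alternatives MOB4, SFN and CCDC80 were not called.

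The list of other YAP and TAZ targets, a signature derived across cancer types, had 8 of 19 genes called higher in L1low cells and 0 called lower over the 5 libraries by edgeR, with 12 at an unadjusted p under 0.05. Over all genes 4.41% were called higher and 23.3% had an unadjusted p under 0.05. The median log2 fold change was 0.33 over the 5 libraries and 0.26 over all 6. CCN2, a matricellular protein, was at 19.1 to 23.4 CPM in L1high and rose to between 76.8 and 79.1 CPM in L1low libraries (log2 fold change 1.88), while CCN1 of the same family was at 433 to 451 CPM and 430 to 479 CPM and was not called (log2 fold change 0.02, edgeR adjusted p = 0.88). AXL, a receptor tyrosine kinase, was at 22.2 to 24.1 CPM in L1high and rose to between 61.7 and 67.4 CPM in L1low libraries (log2 fold change 1.47). NT5E, an ecto-nucleotidase (0.59), IGFBP3, which binds insulin-like growth factors (0.53), and GADD45B, a stress response gene (0.48), rose less, as did PTPN14. The remaining called genes, named after their values were seen, were F3, the tissue factor (0.57), and CRIM1 (0.38). MYOF, TGFB2 and RBMS3 were among the 11 that did not pass, with log2 fold changes of -0.07, 0.01 and 0.17. These targets rose in the same libraries as the markers TP63, KRT14, KRT19 and LUM, whose part in the result was not tested. GADD45B was not called without L1high replicate 2 (edgeR adjusted p = 0.12) or L1low replicate 2 (0.072), F3 not without either L1high replicate (0.072 and 0.073), and CRIM1 not without L1high replicate 1, L1high replicate 2 or L1low replicate 2 (0.063, 0.087 and 0.098).

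**Figure D4:**
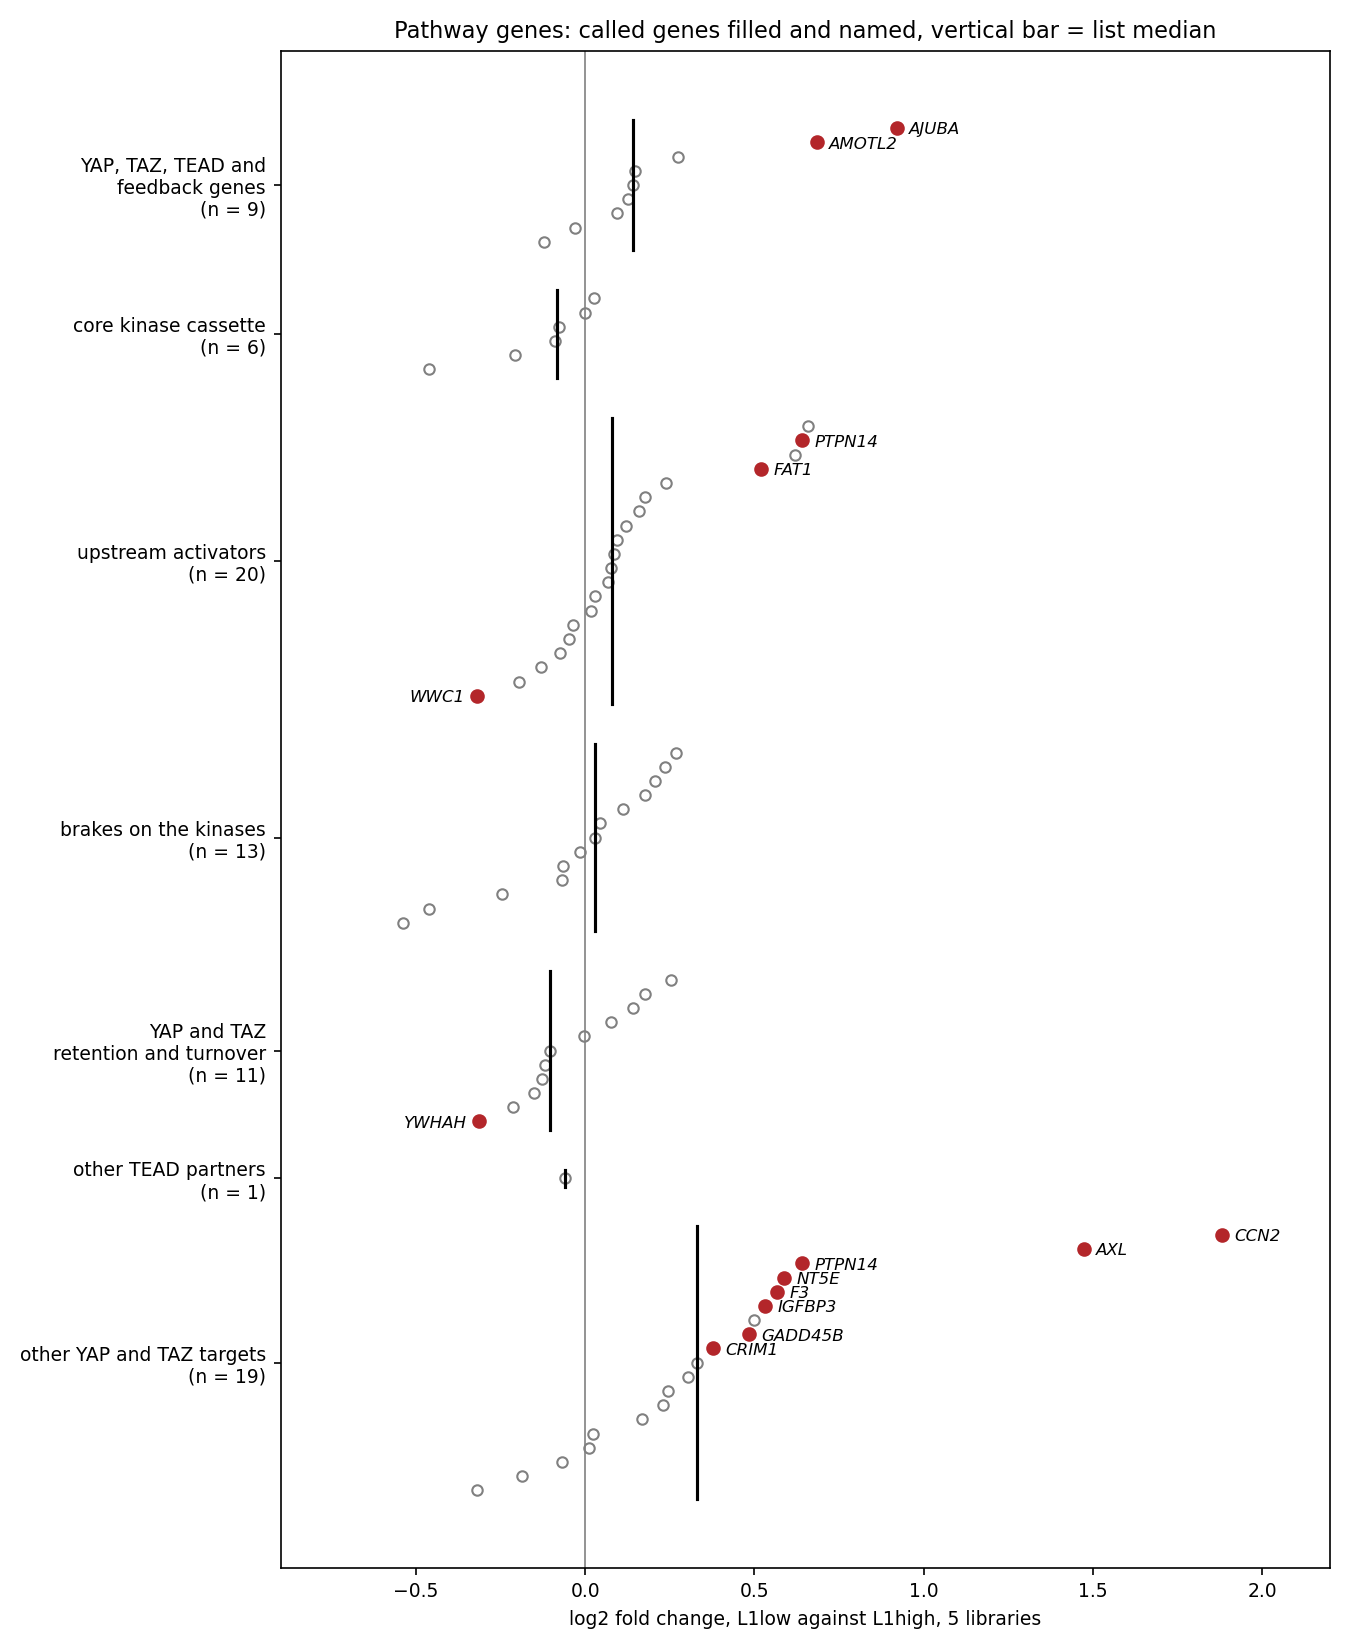
Log2 fold change in L1low against L1high cells over 5 libraries for the 9 genes described and for each list of other pathway genes, 1 point a gene, with called genes filled and named and the median of each list as a vertical bar. The called genes above 1 on this scale are CCN2 (1.88) and AXL (1.47), both among the targets, and no gene of the core kinase cassette is called.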

How the data were processed

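RNA-seq libraries of L1high and L1low L3.6pl cells were analysed from the deposited table of read counts per gene, which the authors made without normalization from paired-end reads of stranded mRNA libraries, aligned to GRCh38 with BWA and counted with featureCounts on an Ensembl annotation. BWA does not split reads over splice junctions, which can lower the counts of genes with short exons. Symbols, positions and exon lengths came from GENCODE 44, which matched 19344 of 19469 identifiers.

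CPM values use TMM factors over all 6 libraries, and RPKM divides them by merged exon length. The comparison used R 4.3.3 with edgeR 4.0.16 (TMM, filterByExpr, quasi-likelihood test, Benjamini-Hochberg adjustment over all genes). Standard errors are the log2 fold change divided by the square root of F, and 95% intervals use the test's degrees of freedom. The fit was run on data simulated from the means and dispersions of these libraries, a check of the code and not of the calls. Alternatives were all 6 libraries, each library left out, a block for the replicate number, other scalings, other filters and DESeq2 1.42.0.

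Replicate numbers come from the sample titles. Deviations from the group means correlated between same-numbered libraries over 12675 genes (0.18, 0.11 and 0.44 for numbers 1, 2 and 3). The numbers were taken to pair the libraries, but only number 3 correlated best with itself in both groups. L1high replicate 2 correlated more with L1low replicate 1 (0.23) than with L1low replicate 2 (0.11). L1low replicate 2 correlated more with L1high replicate 1 (0.13) than with L1high replicate 2. For numbers 1 and 2 the pairing is therefore an assumption. No library was a duplicate of another (chi-square of at least 3.66 per degree of freedom).

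Genes named are the 10 chosen, L1CAM, called genes of each list (at most 6 a direction by adjusted p), the core kinases, the TEAD partners and the 3 genes nearest in pattern to YAP1 and WWTR1. NF2, MYOF, TGFB2, RBMS3, CCN1 and other genes outside this rule were named after their values were seen. The genes and lists were chosen with earlier results of these data known, so no list is independent support. DCHS1, VGLL1, VGLL2 and VGLL3 were not analysed here.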

Additional observations from a re-analysis of the deposited data

How the results depend on the processing

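The alternatives gave 206 values for 14 results, of which 194 had the direction and call reported, or were within 1.5 times of the reported count. The 2 calls among the 9 genes, AJUBA and AMOTL2, and the missing calls of the other 7 were the same in all 16 settings of the fit. The log2 fold change of WWTR1 turned sign over all 6 libraries (0.0015), over these without L1high replicate 2 (0.073) and with the replicate block over these (0.0038), and ran from -0.12 to 0.069 with 1 of the 5 libraries left out, in no case called. The number of all genes called ran from 389 to 1649 with 1 of the 5 libraries left out, and that of other pathway genes from 6 to 14. The numbers of all genes called were 877, 389 and 551, and of other pathway genes 7, 6 and 7, without L1high replicate 1, L1high replicate 2 and L1low replicate 2. With 1 L1high replicate left out, the lone L1high library is assumed to vary like the others. Over all 6 libraries without L1high replicate 1, 674 genes were called, and with the replicate block 2363. Paired by replicate number, the ratio of TEAD1 to TEAD4 differed by 0.36 and that of WWTR1 to YAP1 by -0.19 (exact sign-flip permutation p = 0.25 each, the smallest 3 pairs allow). These paired means equal the unpaired differences by arithmetic, so their agreement, counted among the 194, is no check. No gene was below the count filter over the 5 libraries, and leaving the filter out is therefore void as a test. Its values repeat the main fit and are also counted among the 194. The causes of these changes were not tested.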
